A study of Rattus norvegicus with 43 samples.

Results

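The genes of voltage-gated calcium, potassium and sodium channels were examined in anterior pituitaries from male rats, together with the inward rectifier, leak, calcium-activated and epithelial relatives that share their gene names. A gene was taken as a member when a probe set carried that 1 gene symbol and the symbol began with Cacna, Cacnb, Cacng, Kcn, Scn or Hcn followed by a digit or letter. Of 118 symbols that matched, Scnm1, a splicing factor, was dropped as not a channel subunit, which left 117 members among 14217 singly named genes. Each gene was represented by its brightest probe set, and 44 members had more than 1.

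Expression had been measured on 43 arrays, 1 for each of 43 F2 males of an intercross that began with Copenhagen (COP) females and ACI males. All 43 animals carried a subcutaneous silastic implant holding 5 mg of diethylstilbestrol (DES), a synthetic estrogen, from 9 weeks of age until they were sacrificed 12 weeks later, at 21 weeks. All had also received bromodeoxyuridine (BrdU, 50 mg/kg), which is taken up by dividing cells, 4 hours before sacrifice. The animals had been picked for the 22 highest and 21 lowest pituitary weights, but no label says which animal belonged to which extreme, so they form 1 group, and every result below describes differences between DES-treated animals with no untreated control.

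Hormone cells of the anterior pituitary are electrically excitable. Calcium channels open during spontaneous action potentials and bursts and let in the calcium that releases stored hormone, while potassium channels end each spike, set the resting potential and decide whether a cell fires single spikes or bursts. Dopamine restrains prolactin cells in part by opening inward rectifier potassium channels and damping calcium entry, and estrogen is known to change the firing and channel make-up of these cells.

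Levels are given as log2(intensity + 16), a scale on which the change of dim probe sets is understated. Probe sets were not calibrated against each other, so levels are compared between animals within a gene and never between genes. The tissue label held on its defining genes, with mean log2 levels of 15.61 for Prl, the prolactin gene, 14.97 for Gh1, growth hormone, 14.93 for Cga, the shared subunit of the glycoprotein hormones, and 12.78 for Pou1f1, the transcription factor of the prolactin and growth hormone lineages. Pomc, the precursor made by corticotropin cells, was dim on its 1 probe set (median intensity 29.2). The posterior lobe hormone genes Avp and Oxt were dim, with median intensities of 18.2 and 16.7, as were the glial genes Gfap (59.5), Mog (38.5) and Mobp (12.3). The other genes of that list were mixed: Mbp (655.2), Slc1a3 (900.4), Nefl (398) and Nefm (663.4) were brighter and passed the filter used below, and the remaining 9 of 13 listed genes did not. One array, that of animal 43, was unlike the others: its mean Pearson r with the remaining arrays was 0.927, where the others had 0.967 to 0.976, and it had a 3' minus 5' difference of actin of 1.97 on the log2 scale, against 1.26 to 1.67. It held the lowest value of 14 channel genes and the highest value of 1, so results that rest on it are given with and without it.

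Promoter sequences are shown for 4 channel genes, taken as the 250 bases before the gene start in RefSeq annotation of build GRCr8 and written 5' to 3' on the strand of the gene. Kcna6, Kcnma1 and Scn7a are shown because their levels followed the gonadotroph marker score whether or not a smooth curve over animal number was included, and Kcnq5 because it had the strongest slope among potassium channel genes. Capitals mark the GC box GGGCGG on either strand.
Kcna6, chr4:161262353-161262602, minus strand: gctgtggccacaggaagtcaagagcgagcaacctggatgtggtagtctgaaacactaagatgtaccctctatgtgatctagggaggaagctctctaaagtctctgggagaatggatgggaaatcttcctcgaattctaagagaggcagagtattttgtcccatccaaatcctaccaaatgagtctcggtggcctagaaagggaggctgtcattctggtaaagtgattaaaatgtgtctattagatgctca
Kcnma1, chr15:351675-351924, plus strand: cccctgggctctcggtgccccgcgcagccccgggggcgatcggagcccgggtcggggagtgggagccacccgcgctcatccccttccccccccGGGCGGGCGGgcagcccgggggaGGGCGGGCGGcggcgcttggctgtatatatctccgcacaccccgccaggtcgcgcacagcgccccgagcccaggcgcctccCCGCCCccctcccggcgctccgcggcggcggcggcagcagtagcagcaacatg
Scn7a, chr3:71846285-71846534, minus strand: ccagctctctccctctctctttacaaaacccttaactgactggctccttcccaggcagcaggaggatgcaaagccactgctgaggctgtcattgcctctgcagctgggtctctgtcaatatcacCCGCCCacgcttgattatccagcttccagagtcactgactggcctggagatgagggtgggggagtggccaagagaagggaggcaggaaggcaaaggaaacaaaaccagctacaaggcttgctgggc
Kcnq5, chr9:31891282-31891531, minus strand: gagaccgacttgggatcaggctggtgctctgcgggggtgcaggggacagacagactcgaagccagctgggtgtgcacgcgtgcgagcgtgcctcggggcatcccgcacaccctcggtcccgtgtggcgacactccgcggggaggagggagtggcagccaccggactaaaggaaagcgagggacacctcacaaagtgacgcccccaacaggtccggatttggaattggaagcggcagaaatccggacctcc
These windows had little in common. The Kcnma1 window held 5 matches to the GC box, some of them overlapping, 33 CpG dinucleotides and 79.6% G or C, whereas the Kcna6 window held no GC box, 3 CpG and 45.6% G or C. The Scn7a window had 1 GC box, 2 CpG and 56.0% G or C. The Kcnq5 window had no GC box but 20 CpG and 65.2% G or C. Over the 81 channel genes with a window, the median was 63.2% G or C with 13 CpG, against 52.0% and 6 over all 27457 windows of the same length. The GC box stood in 44 of these 81 windows, or 54.3%, against 32.4% of all windows. The TATA motif TATAAA stood in 4.94% of the channel gene windows and 13.1% of all windows. An estrogen response element, searched as GGTCANNNTGACC, was found in 0 of the 81 channel gene windows and in 6 of all 27457, so a match would hardly be met in a window of this size. The cAMP response element TGACGTCA was found in 0 of the 81 windows and in 1.7% of all windows. All motifs were searched on both strands, and a match in letters is a description of the window, not evidence that a factor binds.

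Of the 117 members, 43 passed the filter on dim probe sets, which asked for a mean log2 of more than 7.16, the median over all probe sets other than controls, and 74 did not. Cacnb1 (7.17) and Scnn1b (7.18) lay just inside this limit and Hcn3 (7.04) and Cacna1h (6.89) just outside it. Among the pore-forming subunits of calcium channels, 3 of 10 passed: the L-type genes Cacna1c and Cacna1d and the T-type gene Cacna1g. All of the 2 alpha2delta genes, 3 of 4 beta genes and 2 of 8 gamma genes passed. Scn7a was the only one of 9 sodium channel pore genes to pass, together with 2 of 3 sodium channel beta genes, Scn2b and Scn3b. Among potassium channel genes, 13 of 31 voltage-gated pore genes, 4 of 11 accessory genes, 2 of 7 calcium-activated genes, 4 of 15 inward rectifier genes and 5 of 11 leak channel genes passed. One of 3 pacemaker genes, Hcn2, and 1 of 3 epithelial sodium channel genes, Scnn1b, also did.

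The 74 genes under the limit had mean log2 levels from 4.42 (Cacng1) to 7.04 and median intensities from 3.4 to 112.9. They included sodium channel pores described in pituitary cells, with median intensities of 4 for Scn2a, 10.3 for Scn3a, 16.6 for Scn8a and 69.8 for Scn9a. They also included the calcium channel genes Cacna1a (62) and Cacna1h (109), the G protein-gated inward rectifier Kcnj6 (100.8), the small-conductance calcium-activated channel Kcnn3 (40.8) and the pacemaker genes Hcn3 (112.9) and Hcn4 (7.9). A dim probe set cannot tell a low transcript level from a poor probe, so these values do not show that a channel was absent. Kcnn2 was not analysed here.

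**Figure D1:**
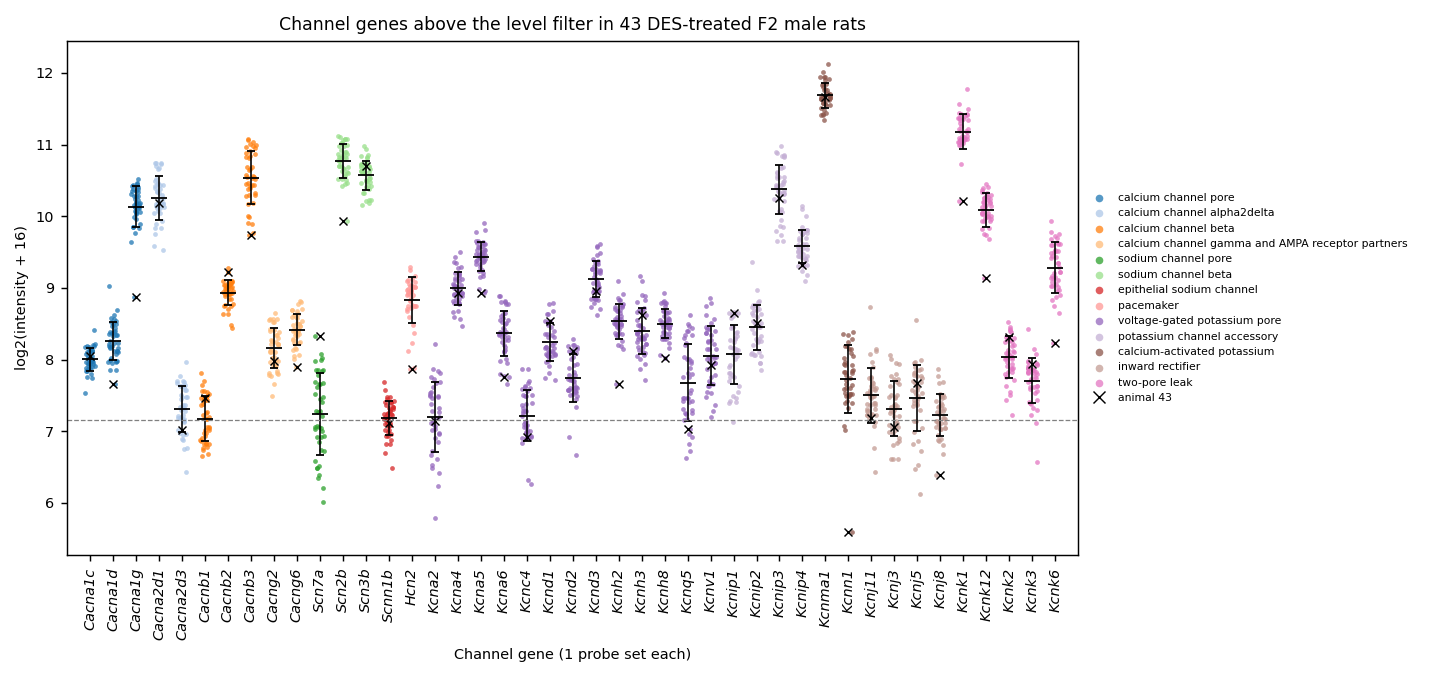
Log2(intensity + 16) of the 43 channel genes above the level filter (x axis, coloured by channel class), with 1 point per animal, the mean (bar) and the SD (error bars). The dashed line is the filter limit of 7.16, and the cross is animal 43, which was lowest in 14 genes. By SD, values spread most widely in Scn7a (0.57) and least in Cacna1c (0.16).

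Channel genes varied between animals somewhat more than other genes of like brightness. The median SD over the 43 animals was 0.30 for the 43 members that passed and 0.23 for all 15521 probe sets that passed. When each SD was placed among those of its 200 neighbours in mean level, the members had a median percentile of 68, against 50 for all. An SD above the 90th percentile was found in 8 of the 43 members, against 9.89% of all probe sets. These 8 were Scn7a, Kcnq5, Kcnn1, Kcnv1, Cacnb3, Kcnip3, Kcnk6 and Cacna2d1. The highest intensity was between 1.72-fold (Kcnma1) and 9.83-fold (Kcnn1) the lowest, with a median of 2.72-fold, and it was at least 3-fold the lowest in 16 of 43 genes.

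The gene with the largest SD was Scn7a, which encodes an atypical sodium channel that senses extracellular sodium and does not open in the usual way with voltage. Its log2 level ran from 6.02 (animal 22) through a median of 7.26 to 8.33 (animal 43), with an SD of 0.57, or 0.56 without animal 43. Kcnq5, a pore subunit of the slow M-type potassium current, ran from 6.62 (animal 35) through 7.57 to 8.62 (animal 7), with an SD of 0.54. Kcna2, a Shaker-type potassium channel, ran from 5.78 through 7.18 to 8.21 (SD 0.49). In Scn7a and Kcnq5 the next lowest values were 6.21 and 6.72 and the next highest 8.07 and 8.50, so no single animal set the spread.

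Kcnn1, a small-conductance potassium channel opened by calcium, differed in this respect. Its values ran from 5.60 (animal 43) through 7.78 to 8.39 and its next lowest value was 7.02, so that the SD of 0.48 became 0.34 without animal 43. Cacna1g behaved alike, with a lowest value of 8.87 in animal 43, a next lowest of 9.65, a median of 10.17 and a highest of 10.53, and with an SD of 0.28 that became 0.20 without that animal.

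Among the G protein-gated inward rectifiers, Kcnj5 ran from 6.13 (animal 2) through 7.55 to 8.55 (animal 38), with an SD of 0.46, and its partner subunit Kcnj3 from 6.61 through 7.29 to 8.06, with an SD of 0.38. Kcnj11, the pore of the ATP-sensitive potassium channel, ran from 6.43 through 7.49 to 8.73 (SD 0.38). Its highest value was that of animal 21, and the next was 8.15. The accessory gene Kcnip1 ran from 7.13 through 8.14 to 8.66 (SD 0.41), Kcnv1, a potassium channel subunit that is silent on its own, from 7.20 through 8.04 to 8.86 (SD 0.41), and Kcnc4, a fast Shaw-type channel, from 6.26 through 7.22 to 7.87 (SD 0.35). At the other end, the L-type pore Cacna1c had an SD of 0.16, which lay at the 0 percentile of its 200 neighbours, and the BK channel Kcnma1 an SD of 0.17, at the 49.5 percentile.

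Levels of several channel genes followed the animal number in the labels. A smooth curve over animal number (a natural cubic spline with 6 degrees of freedom) took a median of 31.7% of the variance of the 43 channel genes, against 28.1% for all probe sets that passed. Such a curve also takes part of the variance of values that hold no trend, and these shares were not adjusted for that. The share was 68.8% for Kcnq5, 64.3% for Kcnk6, 59.7% for Kcnk1, 56.1% for Cacna2d1, 54.4% for Cacnb3, 53.0% for Kcnma1, 52.5% for Kcna6 and 52.1% for Scn7a, and as little as 6.21% for Kcnh3. Kcnq5, Kcnk6 and Kcna6 were mostly higher in animals with low numbers and Scn7a in animals with high numbers. What the number stands for is not given in the labels, so collection order, array processing and pituitary weight cannot be told apart as companions of this pattern.

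**Figure D2:**
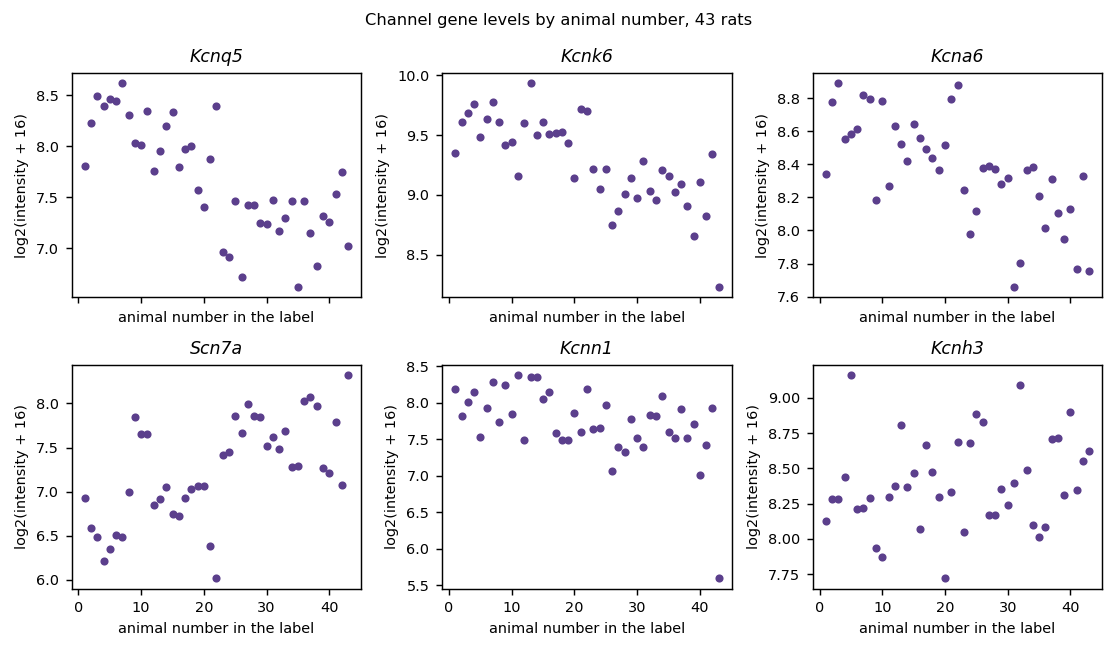
Log2(intensity + 16) of 6 channel genes (y axes) against the animal number in the labels (x axes), 1 point per animal. The curve over animal number took 68.8% of the variance of Kcnq5, 64.3% of Kcnk6, 52.5% of Kcna6 and 52.1% of Scn7a, but 6.21% of Kcnh3. The single low point of Kcnn1 at 5.60 is animal 43.

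Because no label sorts the animals, channel genes were set against 4 marker scores that varied continuously between the glands. A score is the mean of the centred log2 levels of its marker genes, and a slope is the log2 difference of a gene per unit of score. The gonadotroph score (Lhb, Fshb, Gnrhr, Nr5a1 and Cga) ran from -0.78 to 0.67. The somatotroph score (Gh1, Ghrhr, Dlk1 and Ghsr) ran from -0.74 to 0.62. The folliculostellate and stem cell score (S100b, Sox2, Aldh1a2 and Anxa1) ran from -0.66 to 0.42. The proliferation score, over 30 cell cycle genes, ran from -0.87 in animal 38, with the next lowest at -0.35, to 0.35. Every regression used the same 43 arrays, and the curve over animal number took 75.2% of the variance of the gonadotroph score, 72.0% of the somatotroph score, 60.9% of the folliculostellate and stem cell score and 27.0% of the proliferation score. The gonadotroph score was below 0 in all 22 animals numbered 1 to 22 and above 0 in 20 of the 21 numbered 23 to 43. These are the counts of heavy and light glands in the design, but no label ties a number to a weight, so a slope on this score without the curve and a difference between these ranges of numbers, noticed after the values were seen, cannot be told apart. The p-values below are from limma with Benjamini-Hochberg adjustment over all probe sets tested, and called means an adjusted p under 0.05.

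The gonadotroph score was followed by 24 of the 43 channel genes, 15 lower and 9 higher in glands with a high score. That is 34.9% of the channel genes lower, against 12.5% of all 15515 probe sets tested, and 20.9% higher, against 13.0%. The median slope was -0.09 for channel genes and 0.01 for all probe sets. The genes that were lower included some leak potassium channels and the calcium-activated potassium channels that passed, and those that were higher included the G protein-gated inward rectifiers and Scn7a. Other classes were split. Of the Shaker-type genes that passed, Kcna2 and Kcna6 were lower, Kcna5 was higher and Kcna4 was not called. Of the A-type pores and partners, Kcnd1 was lower, Kcnd2, Kcnip2 and Kcnip3 were higher, and Kcnd3, Kcnip1 and Kcnip4 were not called. Of the calcium channel subunits, Cacna1d, Cacna2d1 and Cacnb3 were lower and Cacng6 was higher. In whole glands, fewer cells of a type and less RNA per cell cannot be told apart.

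Kcnq5 had the steepest slope of the channel genes that were lower, at -0.99 ± 0.11 (SE, adjusted p = 1.61e-09). Its highest value, 8.62 in animal 7, lay at a score of -0.43, and the next, 8.50 in animal 3, at -0.77. Kcna6, a Shaker-type channel, ran from 7.66 (animal 31) through 8.37 to 8.89 (animal 3) and had a slope of -0.57 ± 0.06 (adjusted p = 3.69e-09). Kcna2 had a slope of -0.54 ± 0.14 (adjusted p = 0.00394). Kcnd1, an A-type pore, ran from 7.71 through 8.17 to 8.79 and had a slope of -0.32 ± 0.08 (adjusted p = 0.00252).

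Of the 5 leak channel genes that passed, 3 were lower with a high gonadotroph score. The other leak genes, Kcnk2 and Kcnk3, were not called (adjusted p = 0.156 and 0.949). Kcnk6 ran from 8.23 (animal 43, next lowest 8.66) through 9.28 to 9.93 and had a slope of -0.64 ± 0.07 (adjusted p = 4.66e-09), or -0.59 ± 0.06 without animal 43. Kcnk1 ran from 10.21 (animal 43) through 11.12 to 11.78 and had a slope of -0.36 ± 0.07 (adjusted p = 6.11e-05). Kcnk12 ran from 9.14 (animal 43) through 10.13 to 10.45 and had a slope of -0.31 ± 0.07 (adjusted p = 0.000765). Animal 43 held the lowest value of all 3, and each of these calls held without it.

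Among the channels opened by calcium, Kcnma1, which carries the large BK current that shapes bursts in pituitary cells, ran in a narrow range from 11.35 through 11.66 to 12.12. It had a slope of -0.24 ± 0.05 (adjusted p = 0.000355). Kcnn1 had a slope of -0.46 ± 0.14 (adjusted p = 0.016), or -0.32 ± 0.11 (adjusted p = 0.0254) without animal 43. The inward rectifier Kcnj8, an ATP-sensitive channel found in vessel walls, and the pacemaker gene Hcn2 were also lower, with slopes of -0.27 (adjusted p = 0.0267) and -0.29 (adjusted p = 0.0301). Both had their lowest value in animal 43, at 6.40 and 7.87, and without it the adjusted p was 0.0609 for Kcnj8 and 0.0692 for Hcn2.

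Of the 7 auxiliary calcium channel genes that passed, 2 were called lower, Cacnb3 and Cacna2d1, and 1, Cacng6, higher, and of the 3 pores 1 was called lower. Cacnb3, a beta subunit that brings the pore to the membrane, ran from 9.73 (animal 43) through 10.55 to 11.07 (animal 2), with a slope of -0.54 ± 0.10 (adjusted p = 3.47e-05). Cacna2d1, the alpha2delta subunit that binds gabapentin, ran from 9.52 through 10.23 to 10.75, with a slope of -0.36 ± 0.09 (adjusted p = 0.00206). Cacna1d ran from 7.65 (animal 43) through 8.23 to 9.02, with a slope of -0.24 (adjusted p = 0.0301, or 0.0625 without animal 43). The other pores, Cacna1c and Cacna1g, had slopes of 0.01 and -0.15 and were not called. Scn2b, a sodium channel beta subunit, ran from 9.93 (animal 43) through 10.81 to 11.12 and had a slope of -0.36 ± 0.06 (adjusted p = 1.7e-05).

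Scn7a had the steepest slope of the genes that were higher, at 1.01 ± 0.12 (adjusted p = 1.26e-08), and 0.98 ± 0.12 without animal 43, which held its highest value. Kcnd2, the other A-type pore called, ran from 6.67 (animal 4) through 7.71 to 8.29 (animal 37) and had a slope of 0.48 ± 0.09 (adjusted p = 4.67e-05), opposite in sign to Kcnd1. Its partners Kcnip2 and Kcnip3, calcium-binding proteins that attach to A-type pores, had slopes of 0.38 ± 0.09 (adjusted p = 0.00178) and 0.36 ± 0.10 (adjusted p = 0.00877). Kcnip2 ran from 7.86 through 8.48 to 9.36, and Kcnip3 from 9.66 (animal 2) through 10.40 to 10.97 (animal 29). Animal 2, lowest in Kcnip3, and animal 4, lowest in Kcnd2, lay at the low end of the gonadotroph score. In animal 4, however, Kcnip3 was at 10.56, above its median.

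Both G protein-gated inward rectifier genes were higher with a high gonadotroph score. Kcnj5 had a slope of 0.64 ± 0.12 (adjusted p = 0.000114) and Kcnj3 of 0.36 ± 0.12 (adjusted p = 0.0201). The remaining genes called higher had small slopes, 0.24 for Scnn1b (adjusted p = 0.0173), an epithelial sodium channel subunit, 0.20 for Kcna5 (adjusted p = 0.0222), a Shaker-type delayed rectifier, and 0.21 for Cacng6 (adjusted p = 0.0262), a calcium channel gamma subunit.

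**Figure D3:**
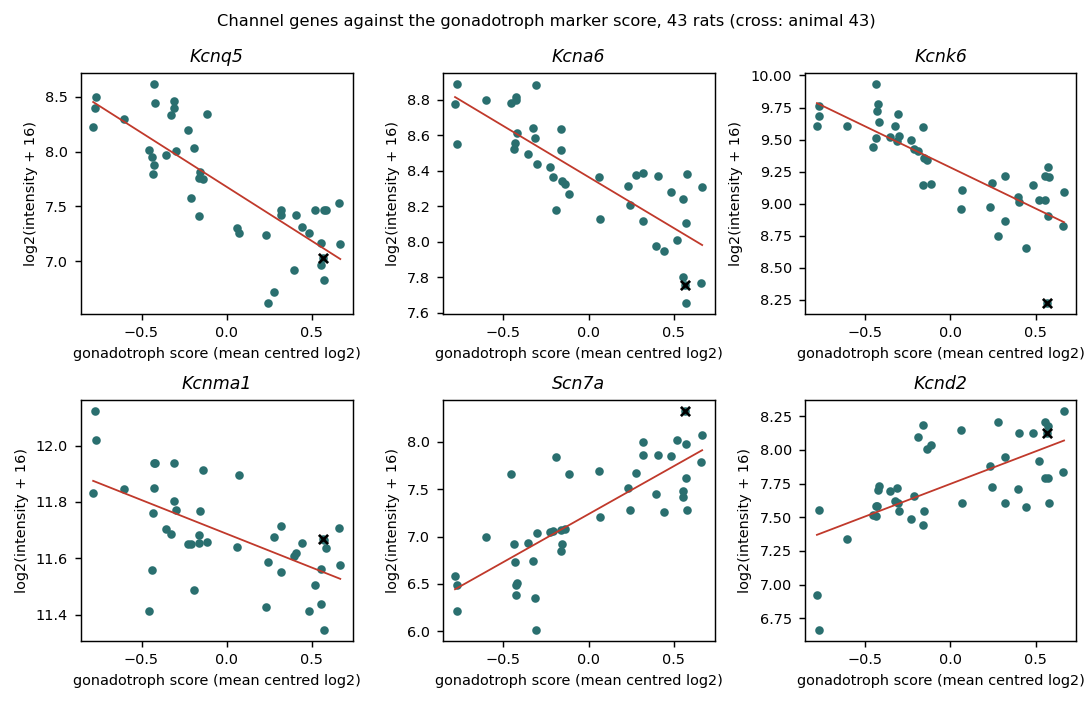
Log2(intensity + 16) of 6 channel genes (y axes) against the gonadotroph score (x axes), 1 point per animal, with the fitted line and animal 43 as a cross. Slopes were -0.99 for Kcnq5, -0.57 for Kcna6, -0.64 for Kcnk6 and -0.24 for Kcnma1, and 1.01 for Scn7a and 0.48 for Kcnd2.

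With the curve over animal number in the model, 4 channel genes were still called, against 1.57% of all probe sets. Kcna6 had a slope of -0.65 ± 0.12 (adjusted p = 0.00486), Kcnk6 of -0.51 ± 0.13 (adjusted p = 0.0414) and Kcnma1 of -0.31 ± 0.08 (adjusted p = 0.0413). Scn7a had a slope of 1.07 ± 0.23 (adjusted p = 0.0146). These were 3 potassium channels of different classes and the sodium sensor. Kcnq5 went to -0.57 ± 0.20 (adjusted p = 0.136), Kcnd2 to 0.38 (adjusted p = 0.251) and Kcnj5 to 0.39 (adjusted p = 0.43). The slopes of Cacna2d1, Cacng6 and Kcna5 changed sign, to 0.048, -0.043 and -0.046. For the genes that lost their call, a relation with the score and one with whatever the animal number tracks cannot be told apart.

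**Figure D4:**
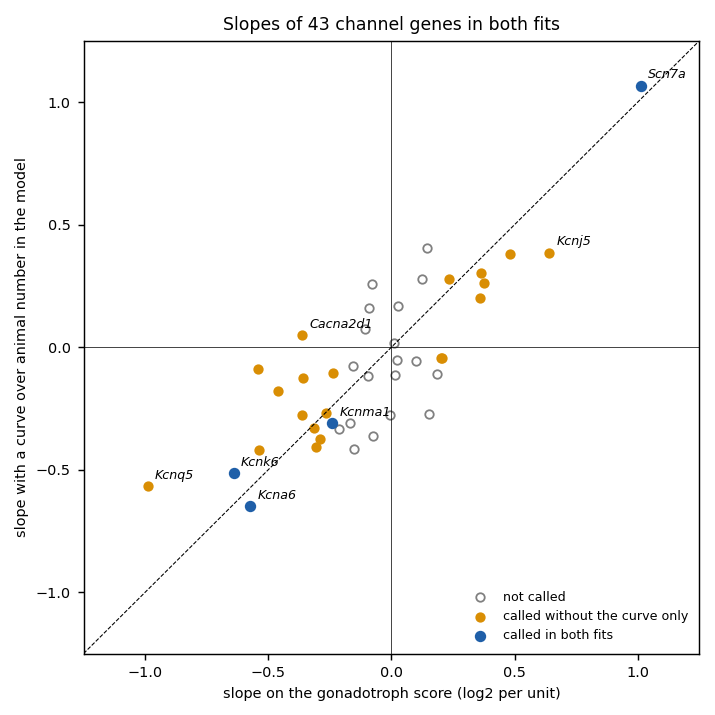
Slope of the 43 channel genes on the gonadotroph score without (x axis) and with (y axis) a curve over animal number in the model, in log2 units per unit of score, 1 point per gene. Blue points (Scn7a, Kcnma1, Kcnk6 and Kcna6) were called in both fits, orange points without the curve only, and open points in neither. The dashed line marks equal slopes.

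Some markers of other cells moved with the gonadotroph score, with which 13.0% of all probe sets were higher and 12.5% lower. Lists of 2 to 4 genes are too short to be read against these shares. Of the other cell lists, 3 of 4 somatotroph genes, 4 of 4 folliculostellate and stem cell genes, 2 of 4 lactotroph genes (Pou1f1 and Agtr1b), 1 of 2 thyrotroph genes and 2 of 4 endothelial genes that passed were higher, while 12 of 30 proliferation genes, Drd2 and the prohormone convertase Pcsk2 were lower. Of the remaining lists, 2 of 3 erythroid genes (Hbb and Alas2) and 1 of 3 fibroblast genes (Dcn) were higher, 1 of 2 mural genes (Rgs5) was lower, and of 8 macrophage genes 2 were higher (Csf1r and Lyz2) and 3 lower (Cd68, Mrc1 and Cd14). Of 13 neural and glial genes, 4 passed (Mbp, Slc1a3, Nefl and Nefm) and 1, Nefl, was higher. With the score of these 4 as a covariate, 13 of 43 channel genes were called, against 25.3% of all probe sets. Of these 13, 12 were also called without it, among them Kcna6, Kcnk6 and Scn7a, with covariate slopes of -0.78, -0.80 and 1.10. Cacna1g was called only with the covariate (-0.67, adjusted p = 0.000401), whereas Kcnma1 had a slope of -0.18 there (adjusted p = 0.115). The part of these other cells in the channel gene slopes was not tested.

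The somatotroph score was followed by 16 channel genes. Higher were 7, or 16.3%, against 8.89% of all 15516 probe sets tested, and lower were 9, or 20.9%, against 7.88%. The genes higher were Scn7a (slope 1.18 ± 0.18, adjusted p = 3.48e-06), Kcnd2 (0.58, adjusted p = 0.000312), Cacng6 (0.39, adjusted p = 0.000497), Kcnj5 (0.78, adjusted p = 0.000531), Kcna5 (0.34, adjusted p = 0.00173), Kcnip3 and Kcnip2. Those lower were Kcnq5 (-1.06 ± 0.17, adjusted p = 1.59e-05), Kcna6 (-0.60, adjusted p = 4.29e-05), Kcnk6 (-0.64, adjusted p = 0.000133), Scn2b (-0.40, adjusted p = 0.00112), Kcnk1 (-0.39, adjusted p = 0.00224), Kcnma1 (-0.28, adjusted p = 0.00303), Cacnb3, Cacna2d1 and Kcnk12. Without animal 43 the slope of Kcnip2 went from 0.38 to 0.25 (adjusted p = 0.093). Without animal 38 the slope of Kcnk12 hardly moved, from -0.27 to -0.26, but its adjusted p was 0.0607. With the neural and glial score as a covariate none of the 16 was called, 10 channel genes had an unadjusted p under 0.05 and 0.477% of all probe sets were called, although Scn7a had a slope of 0.97 (adjusted p = 0.0703) and Kcna6 of -0.54 (adjusted p = 0.0929). With the curve over animal number, none was called at an adjusted p under 0.05 and 6 of 43 had an unadjusted p under it, while 0% of all probe sets were called.

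The folliculostellate and stem cell score, which reads the non-hormonal cells that support and renew the gland, was followed by 18 channel genes. Higher were 7, or 16.3%, against 9.11% of all 15517 probe sets tested, and lower were 11, or 25.6%, against 8.22%. Scn7a (1.30, adjusted p = 5.09e-06), Kcnd2 (0.67, adjusted p = 0.000147), Kcnj5 (0.89, adjusted p = 0.000378) and Kcnip3 (0.63, adjusted p = 0.00116) led the genes that were higher, with Kcnip2, Kcnj3 and Scn3b, the last of which had the same slope of 0.27 without animal 38, at an adjusted p of 0.0523. Kcnq5 (-1.20, adjusted p = 7.39e-06), Kcnk6 (-0.72, adjusted p = 0.000121), Kcna6 (-0.63, adjusted p = 0.000187) and Kcnma1 (-0.33, adjusted p = 0.00114) led those that were lower, with Scn2b, Kcnk12, Kcnk1, Kcnd1, Kcna2, Cacnb3 and Kcnj8. With the neural and glial score as a covariate 3 were called, against 2.65% of all probe sets. Of these 3 channel genes, 2 were also called without it, and Kcnh2 was called only with it (-0.56, adjusted p = 0.0403). With the curve over animal number, none was called and 10 had an unadjusted p under 0.05, while 0.696% of all probe sets were called. Slopes in that fit stayed about as large for Kcnk12 (-0.45, adjusted p = 0.108) and Kcnma1 (-0.32, adjusted p = 0.105), and were 1.05 for Scn7a (adjusted p = 0.0616) and 0.55 for Kcnip3 (adjusted p = 0.229). Since the 5 gonadotroph genes were also higher with this score and with the somatotroph score, on the same arrays, these regressions are not separate evidence.

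The proliferation score was followed by 8 channel genes, 7 higher and 1 lower in glands with more cell cycle RNA. Of the cell marker genes that passed, 2 of 5 gonadotroph genes (Fshb and Cga) and 1 of 2 thyrotroph genes (Tshb) were lower with this score. So were 1 of 4 lactotroph genes (Agtr1b) and 2 of 3 erythroid genes (Hbb and Alas2), and 1 of 8 macrophage genes (Cd14) was higher. Of all probe sets tested, 5.22% were higher and 4.73% lower. The part of these markers in the channel gene slopes was not tested. Of the channel genes, 16.3% were higher, against 5.22% of all 15486 probe sets tested, and 2.33% lower, against 4.73%. The median slope was 0.11 for channel genes and 0.00339 for all probe sets. Cacnb3 had a slope of 1.12 ± 0.23 (adjusted p = 0.00179), Cacna2d1 of 0.87 ± 0.20 (adjusted p = 0.00408) and Kcnq5 of 1.49 ± 0.35 (adjusted p = 0.00519). The leak channels Kcnk1 and Kcnk6 had slopes of 0.77 ± 0.16 (adjusted p = 0.00166) and 0.79 ± 0.25 (adjusted p = 0.0329). Scn2b (0.61 ± 0.16, adjusted p = 0.0141) and Kcnn1 (1.13 ± 0.32, adjusted p = 0.0196) were also higher, and Kcnj5 was lower (-1.10 ± 0.31, adjusted p = 0.0198).

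Some of these calls were lost without a single animal. Without animal 38, which had the lowest proliferation score and the highest level of Kcnj5, 8 channel genes were called, against 8.00% of all probe sets, and the slope of Kcnj5 was -0.97 (adjusted p = 0.152). Without animal 43, 6 channel genes were called, against 6.32% of all probe sets, with Kcnn1, Kcnk6 and Scn2b lost and Kcna5 gained as lower. Animals 38 and 43 had the 2 lowest proliferation scores, -0.87 and -0.35, and animal 43 is also the array that stands apart. Without these 2 animals, 2 channel genes were called, against 1.38% of all probe sets, and 14 had an unadjusted p under 0.05. With the curve over animal number, none was called, 11 had an unadjusted p under 0.05 and 1.11% of all probe sets were called.

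**Figure D5:**
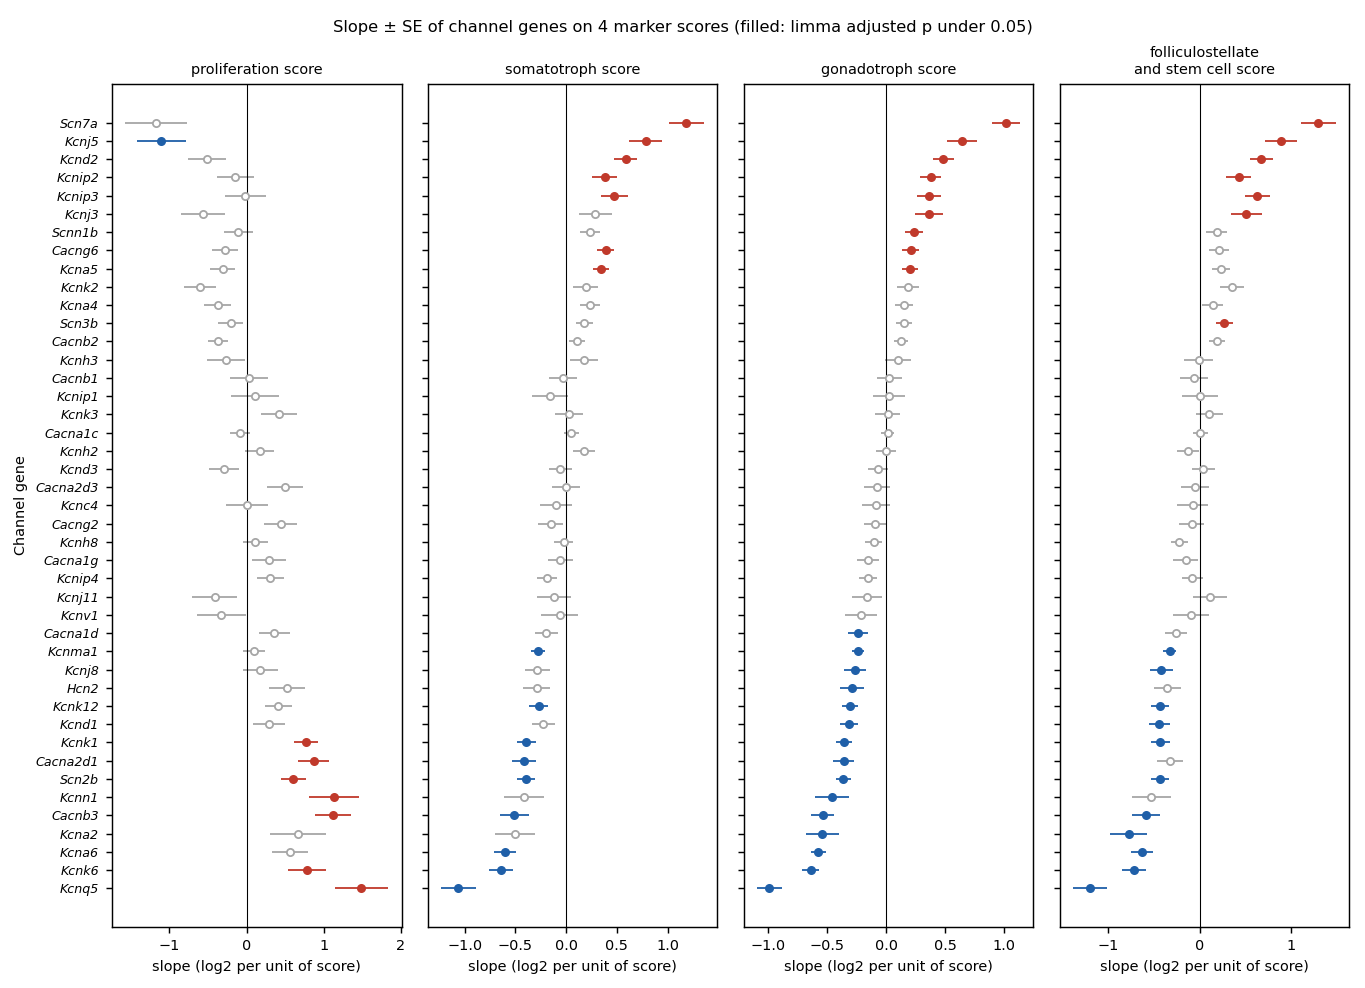
Slope ± SE of the 43 channel genes (y axis, ordered by the gonadotroph slope) on 4 marker scores (panels), in log2 units per unit of score. Filled points had an adjusted p under 0.05, in red for higher and blue for lower. In the gonadotroph panel 9 genes were higher and 15 lower, and in the proliferation panel 7 were higher and 1, Kcnj5, lower.

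In all 4 regressions 18 of the 43 channel genes were not called. Among them were pores well known from pituitary physiology. Cacna1c, the L-type pore, stayed between 7.53 and 8.42 with a median of 7.99. Cacna1g, Kcna4, an A-type channel with an SD of 0.23, and Kcnh2, the ERG channel that sets the resting potential of prolactin cells, were not called either. With the neural and glial covariate, Cacna1g was called lower on the gonadotroph score and Kcnh2 on the folliculostellate and stem cell score. Kcnh2 ran from 7.66 (animal 43, next lowest 8.14) through 8.55 to 9.10. Kcnj11, Kcnv1, Kcnip1 and Kcnc4, among the 12 genes with the largest SD, were not called, so their spread followed none of the 4 scores at this threshold. A missing call does not show that the slope was 0.

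A second probe set of the same gene passed the filter for 11 members, which gives another reading of the same transcript. On the gonadotroph score it was called in the same direction for Kcnma1 (-0.34, adjusted p = 0.000248), Kcnip3 (0.58, adjusted p = 0.00425), Kcnj3 (0.53, adjusted p = 0.000407) and Kcnk6 (-0.25, adjusted p = 0.0445). It was not called for Kcnd2 (0.30, adjusted p = 0.0538) and Scn2b (-0.23, adjusted p = 0.131). For Cacng2, a gamma subunit known as a partner of AMPA receptors, the second probe set was called (-0.42, adjusted p = 0.00155) and the brightest was not (-0.09), so the probe sets of this gene disagree. On the somatotroph and folliculostellate and stem cell scores, second probe sets were called in the same direction for Kcnma1 (adjusted p = 0.00493 and 0.00504) and Kcnip3 (0.0087 and 0.00237). On the folliculostellate and stem cell score this also held for Scn3b (0.0079) and Kcnj3 (0.034). For Kcnj3 (0.68, adjusted p = 0.000909) and Cacng2 (-0.44, adjusted p = 0.0222) the second probe set was called on the somatotroph score and the brightest was not (0.225 and 0.423). Second probe sets were not called on these scores for Kcnk6 (0.517 and 0.196), Scn2b (0.446 and 0.157) and Kcnd2 (0.0936 and 0.0585). On the proliferation score none was called, with 0.112 for Kcnk6 and 0.31 for Scn2b. The calls of Kcnk6 and Scn2b on these 3 scores thus rest on 1 probe set each. So do the calls of Kcnd2 on the somatotroph and folliculostellate and stem cell scores.

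Genes that work beside the channels in excitation and secretion (calcium stores and pumps, channel partners, release proteins and G protein regulators) were counted from a list of 49, of which 31 passed. With the gonadotroph score 5 were higher and 5 lower, with the somatotroph score 5 and 3, with the folliculostellate and stem cell score 4 and 3, and with the proliferation score 3 and 2. Of all probe sets tested, 13.0% were higher and 12.5% lower with the gonadotroph score, and 8.89% and 7.88% with the somatotroph score. The shares were 9.11% and 8.22% for the folliculostellate and stem cell score and 5.22% and 4.73% for the proliferation score. Largest by t on the gonadotroph score were Itpr1, the calcium release channel of internal stores (0.62 ± 0.06, adjusted p = 5.9e-10), Nalcn, the sodium leak channel that depolarises resting cells (0.51 ± 0.06, adjusted p = 5.33e-09), and Rgs4, a brake on G protein signalling (0.89 ± 0.12, adjusted p = 2.8e-07). Dpp6, a partner of A-type potassium channels (-0.41 ± 0.06, adjusted p = 2.67e-06), Ank2, a membrane anchor (-0.32 ± 0.05, adjusted p = 8.92e-06), and Slc8a1, the sodium-calcium exchanger (-0.33 ± 0.06, adjusted p = 0.00013), were lower.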

How the data were processed

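Anterior pituitary RNA of 43 animals was read on 1 biotin-labelled array each. The authors deposited 1 linear intensity per probe set and array, already scaled so that the trimmed mean lay between 500.17 and 500.22 on every array. Which software summarised the probes of a set is not given in the sources used. Per the labels all samples form 1 group. No pair of arrays held identical values.

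From the deposited intensity values of 31099 probe sets (57 controls), 16 was added and the log2 taken. The filter kept the 15521 non-control probe sets with a mean above their median. Gene names came from the platform annotation: 20826 non-control probe sets had 1 gene, 436 several and 9780 none. Regressions on the marker scores were fitted with limma 3.58.1 (R 4.3.3, lmFit and eBayes) over all probe sets passing the filter except those of the score's own list, with Benjamini-Hochberg adjustment and a threshold of 0.05. They were tested on simulated data in which each probe set had independent noise. That noise held no trend over animal number and no correlation between probe sets, so false calls from these were not tested. Values are given for the 12 members with the largest SD, up to 12 called members per regression ranked by moderated t, the members nearest the filter limit, pore genes well known from pituitary physiology, and up to 6 partner genes. Other genes that are named were chosen after their values were seen. The members, marker lists, scores and tests were chosen with earlier results of these data known. Alternatives covered the added constant, the filter, normalization between arrays, arrays left out, RNA quality, ranks, animal number and the choice of probe set. Promoters came from a RefSeq table of build GRCr8 that held a window for 81 of 117 members. The number of arrays limits the precision.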

Additional observations from a re-analysis of the deposited data

How the results depend on the processing

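The counts of channel genes depended most on animal number and on the filter. With the curve over animal number, 0 channel genes were called for the proliferation score, 0 for the somatotroph score, 4 for the gonadotroph score and 0 for the folliculostellate and stem cell score in limma, where 11, 6, 14 and 10 had an unadjusted p under 0.05. Of 66 calls of a gene with a score, 59 were lost there with the same sign, and 3 slopes on the gonadotroph score changed sign: Cacna2d1 (0.048), Cacng6 (-0.043) and Kcna5 (-0.046). With the neural and glial score as a covariate, an alternative chosen after seeing the data, the somatotroph score had 0 calls (10 with an unadjusted p under 0.05), the gonadotroph score 13 and the folliculostellate and stem cell score 3, against 0.477%, 25.3% and 2.65% of all probe sets, and the slopes of Cacng6 (-0.012) and Kcna5 (-0.027) on the gonadotroph score changed sign. Of those 13 and 3 calls, 12 and 2 were also made without the covariate. Without the filter, all 117 members were kept and 17 had an SD above the 90th percentile of their neighbours. Under the stricter filter, 12 members were kept, 4 had such an SD, and 3, 10, 10 and 8 were called for the proliferation, somatotroph, gonadotroph and folliculostellate and stem cell scores, against 3.80%, 20.1%, 40.7% and 30.9% of all probe sets, with fewer genes tested. The proliferation score had 2 calls without the 2 animals farthest from its median. These were animals 38 and 43. Leaving out animals 38 and 43 by name, an alternative likewise chosen after seeing the data, drops the same arrays for this score and is not a separate result. The cause of these changes was not tested. All other totals of channel genes called stayed within 1.5 times their main value under a constant of 64 or 4, quantile normalization, array medians, RNA quality covariates, ranks, the mean of all probe sets of a gene, 400 neighbours in place of 200, and each of animals 38 and 43 left out. Split by direction they moved more: the 1 gene lower with the proliferation score became 2 under quantile normalization, array medians or without animal 43, 3 under a constant of 64 and 4 under ranks, the 7 higher became 4 without animal 43, the 9 higher with the gonadotroph score became 14 without the filter, and the 7 higher with the folliculostellate and stem cell score became 4 under array medians or the mean of all probe sets. No paired analysis was possible because the arrays form 1 group of separate animals. Dim probe sets limit what can be said of the 74 members under the filter.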
